A study of Mus musculus with 9 samples.

Results

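In BV-2 microglial cells, 79 genes were markedly lower after lipopolysaccharide (LPS). When β-hydroxybutyrate was given with the LPS, they regained at least 75% of that difference on a log2 scale. Their levels then ran from below to above those of untreated cells. The genes were chosen by their measured values. Each gene's count was expressed relative to the total count of its library (CPM), and the mean CPM of each group plus 1 was put on the log2 scale. A gene was kept if its highest group mean was at least 5 CPM, if Control exceeded Medium by at least 1.5 on that scale, and if BHB regained at least 75% of that difference. Of 12413 gene symbols, 9252 reached 5 CPM and 419 of these met the first condition on the difference, so that 340 genes lowered by LPS stayed outside the set. The choice used all 3 groups. The differences of the 79 genes between groups are therefore descriptions of the set and carry no p-value here.

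BV-2 cells are murine microglia that grow without limit in culture, and all groups came from this line. The BHB group received LPS, a glycolipid of Gram-negative bacteria, at 1 μg/mL, together with the ketone body β-hydroxybutyrate as R-3-hydroxybutyric acid at 1.5 mM. The Medium group received the same LPS with phosphate-buffered saline (PBS) in place of the ketone body, as the study's text has it. For the Control group the labels give PBS alone, without LPS. Both doses are those given for cell culture in the study's methods. Each group had 3 libraries, with total counts between 23411672 and 32767278 over the 9 libraries. How long the cells were treated before RNA extraction is not stated in those methods or in the labels. The study's statistical methods speak of independent biological replicates for the work as a whole. The spread given here is that between these libraries.

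Of 12 marker genes of microglia and macrophages, 10 were in the table and 9 reached 5 CPM. Their summed level was 4677 to 5065 CPM in BHB, 2797 to 3282 CPM in Medium and 4026 to 4245 CPM in Control, and no marker of astrocytes, neurons, oligodendrocytes, fibroblasts, endothelial cells, lymphocytes or neutrophils reached 5 CPM. Of the 5 or 6 markers sought for each of these other types, only 1 to 3 were in the table. The lower marker sum in Medium moved with the set, and its part in the result was not tested. The markers include Csf1r, a gene of the set, with means of 256 CPM in BHB, 39.4 CPM in Medium and 249 CPM in Control. The sum is therefore not independent of the set. Since whole cultures were sequenced, fewer cells in a given state and less RNA per cell cannot be told apart. CPM are not corrected for transcript length, so levels are compared between groups and not between genes.

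Microglia, like other macrophages, answer LPS through Toll-like receptor 4. They switch on inflammatory genes and switch off part of the program of resting cells, including receptors for growth factors, nucleotides and lectin ligands. Arginine lies at a fork of this response, where inducible nitric oxide synthase competes with arginase. Glycolysis, glycogen turnover and the oxygen-sensing transcription factor HIF-1 are engaged in activated macrophages as well.

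Promoter sequences are shown for genes of the set that stand for these programs. RefSeq promoter windows, 250 bases before to 50 bases after a start site on GRCm38.p6, were at hand for 62 of the 79 genes. The first sequences belong to Bnip3 and P4ha2, which are known HIF-1 targets, and to Selenbp1 and F10, which are among the genes with the largest LPS difference. They are the 250 bases before the start, 5′ to 3′. Capitals mark each match on either strand to ACGTG, a form of the core of the HIF binding site. In Bnip3 the match is the palindrome CACGTG, which is also an E-box. Gsn, Cgnl1, Atp9a and Il1rl1, also among the genes with the largest LPS difference, had no ACGTG in their windows.
Bnip3: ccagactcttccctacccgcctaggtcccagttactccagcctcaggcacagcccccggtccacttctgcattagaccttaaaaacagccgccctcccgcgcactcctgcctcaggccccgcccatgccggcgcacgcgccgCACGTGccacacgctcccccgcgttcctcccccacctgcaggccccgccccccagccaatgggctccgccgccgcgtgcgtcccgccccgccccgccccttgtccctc
P4ha2: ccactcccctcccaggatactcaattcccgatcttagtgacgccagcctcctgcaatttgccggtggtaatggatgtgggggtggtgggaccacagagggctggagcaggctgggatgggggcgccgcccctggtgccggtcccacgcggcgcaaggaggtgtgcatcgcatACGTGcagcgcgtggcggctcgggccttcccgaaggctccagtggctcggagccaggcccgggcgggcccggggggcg
Selenbp1: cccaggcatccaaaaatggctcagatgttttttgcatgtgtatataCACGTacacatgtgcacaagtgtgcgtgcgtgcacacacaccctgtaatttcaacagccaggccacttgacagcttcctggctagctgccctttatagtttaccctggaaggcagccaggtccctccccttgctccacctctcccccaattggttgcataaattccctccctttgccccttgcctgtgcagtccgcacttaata
F10: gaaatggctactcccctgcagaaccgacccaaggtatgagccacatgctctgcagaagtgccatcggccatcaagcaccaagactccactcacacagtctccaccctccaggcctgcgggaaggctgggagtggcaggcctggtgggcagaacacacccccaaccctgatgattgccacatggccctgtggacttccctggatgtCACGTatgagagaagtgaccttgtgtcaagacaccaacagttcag
The windows lie at chr7:138909507-138909756 (minus strand) for Bnip3, chr11:54100674-54100923 (plus strand) for P4ha2, chr3:94932833-94933082 (plus strand) for Selenbp1 and chr8:13037058-13037307 (plus strand) for F10.

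Clec5a and Pirb, both receptors of myeloid cells, had several matches to GAGGAA, the core recognized by the myeloid factor PU.1 and other ETS proteins. The capitals mark GAGGAA or its reverse complement TTCCTC.
Clec5a: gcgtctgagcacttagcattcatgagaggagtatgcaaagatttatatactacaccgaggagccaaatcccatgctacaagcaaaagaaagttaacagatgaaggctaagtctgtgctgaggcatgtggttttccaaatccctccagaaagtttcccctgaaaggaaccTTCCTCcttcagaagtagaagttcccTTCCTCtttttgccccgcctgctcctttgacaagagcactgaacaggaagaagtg
Pirb: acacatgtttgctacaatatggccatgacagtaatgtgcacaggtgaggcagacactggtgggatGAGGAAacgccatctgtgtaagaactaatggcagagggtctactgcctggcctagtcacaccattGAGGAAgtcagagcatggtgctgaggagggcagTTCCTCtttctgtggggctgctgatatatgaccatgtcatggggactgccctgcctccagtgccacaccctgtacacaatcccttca
These windows lie at chr6:40585806-40586055 (minus strand) for Clec5a and chr7:3720383-3720632 (minus strand) for Pirb.

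Motif shares over all windows are given as a description. The 62 genes had 81 windows. ACGTG was found in 27.2% of them, in 22.7% of the windows of LPS-lowered genes outside the set, in 26.5% of the windows of genes at 5 CPM or more and in 19.6% of all 32851 windows. GAGGAA was found in 28.4%, 32.9%, 26.6% and 28.3% of the same groups of windows. The AP-1 motif TGANTCA was found in 11.1% of the set's windows (9 of 81), in 6.7% of those of LPS-lowered genes outside the set, in 4.8% of those of genes at 5 CPM and in 7.8% of all windows. Windows rich in CpG made up 50.6% of the set's, 50.1% of those of the other LPS-lowered genes and 70.3% of those of genes at 5 CPM. Motifs were sought as exact letters on both strands, and a match is not a binding site. Other motifs were sought too and their shares are not given, so a difference in a single motif does not mark the set.

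In each of the 79 genes, every Medium library lay below every BHB library and every Control library. The same order was found in 32.2% of all genes at 5 CPM or more. In the set this order follows largely from the rule. The summed level of the 79 genes was 5032 to 5335 CPM in the BHB libraries, 1061 to 1267 CPM in the Medium libraries and 5117 to 5359 CPM in the Control libraries. Across genes, mean levels ran from 4.05 to 627 CPM in BHB (median 26.6), from 0.0203 to 147 CPM in Medium (median 5.77) and from 4.21 to 985 CPM in Control (median 23.7). On the scale of the rule, BHB minus Medium was 1.18 to 5.62 with a median of 1.79, and Control minus Medium was 1.504 to 3.98 with a median of 1.89. The share of the LPS difference that was regained ran from 75.2% to 185%, with a median of 91.2%. It was over 100% in 30 genes, whose BHB mean lay above Control, and under 100% in 49.

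For comparison with the rest of the transcriptome, all 10413 genes with sufficient counts were fitted with edgeR's quasi-likelihood test, in which libraries were scaled by the trimmed mean of M values (TMM) and a gene was called at an adjusted p of 0.05. All 79 genes entered this fit. In Medium against Control all 79 were called lower, as were 36.3% of all genes tested, while 36.3% were called higher. In BHB against Medium all 79 were called higher, as were 33.2% of all genes tested, while 33.6% were called lower. These calls follow from the rule. The log2 fold change of the set had a median of -1.92 for Medium against Control and of 1.89 for BHB against Medium, beside medians of -0.01 and 0.00 over all genes tested. The Medium libraries enter both comparisons.

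Arg1, which encodes the arginase that marks alternatively activated macrophages, had the largest difference between Control and Medium on the scale of the rule. It stood at 99.7, 93.7 and 115 CPM in BHB, at 1.86, 0.972 and 0.517 CPM in Medium and at 32.7, 31.6 and 32.98 CPM in Control. All BHB libraries were above all Control libraries, and the Medium libraries were far below both. Its log2 fold change was -4.53 (SE 0.217) for Medium against Control and 6.33 (SE 0.209) for BHB against Medium.

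Selenbp1, whose human counterpart is a selenium-binding methanethiol oxidase, had 285, 267 and 332 CPM in BHB, 13.2, 13.4 and 12.1 CPM in Medium and 132, 146 and 127 CPM in Control. The 3 groups did not overlap, and BHB was 2.18-fold the Control level.

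In other genes with a large LPS difference, BHB stayed below Control. Gsn, which encodes the actin-severing protein gelsolin, had 649, 597 and 636 CPM in BHB, 150, 150 and 143 CPM in Medium and 966, 1045 and 942 CPM in Control. F10, the gene of coagulation factor X, had 43.0, 43.4 and 47.3 CPM in BHB, 5.40, 6.39 and 4.98 CPM in Medium and 66.5, 81.5 and 64.2 CPM in Control. Both genes were regained by 76.2% and 81.0%, and in neither did BHB libraries reach the lowest Control library.

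Cgnl1 and Cgn encode paracingulin and cingulin, related proteins of tight and adherens junctions. Cgnl1 had 7.45, 6.61 and 5.23 CPM in BHB, 0.122, 0.224 and 0.148 CPM in Medium and 9.10, 10.2 and 10.04 CPM in Control. Cgn had 6.53, 6.42 and 6.92 CPM in BHB, 0.885, 0.822 and 0.959 CPM in Medium and 9.70, 10.96 and 10.8 CPM in Control. The relatives thus shared the order BHB below Control, at 83.3% and 77.3% of the difference regained. Atp9a, a phospholipid flippase gene, had 13.5, 12.9 and 17.1 CPM in BHB, 1.01, 1.53 and 1.73 CPM in Medium and 17.2, 19.8 and 16.2 CPM in Control, and here BHB and Control overlapped.

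**Figure D1:**
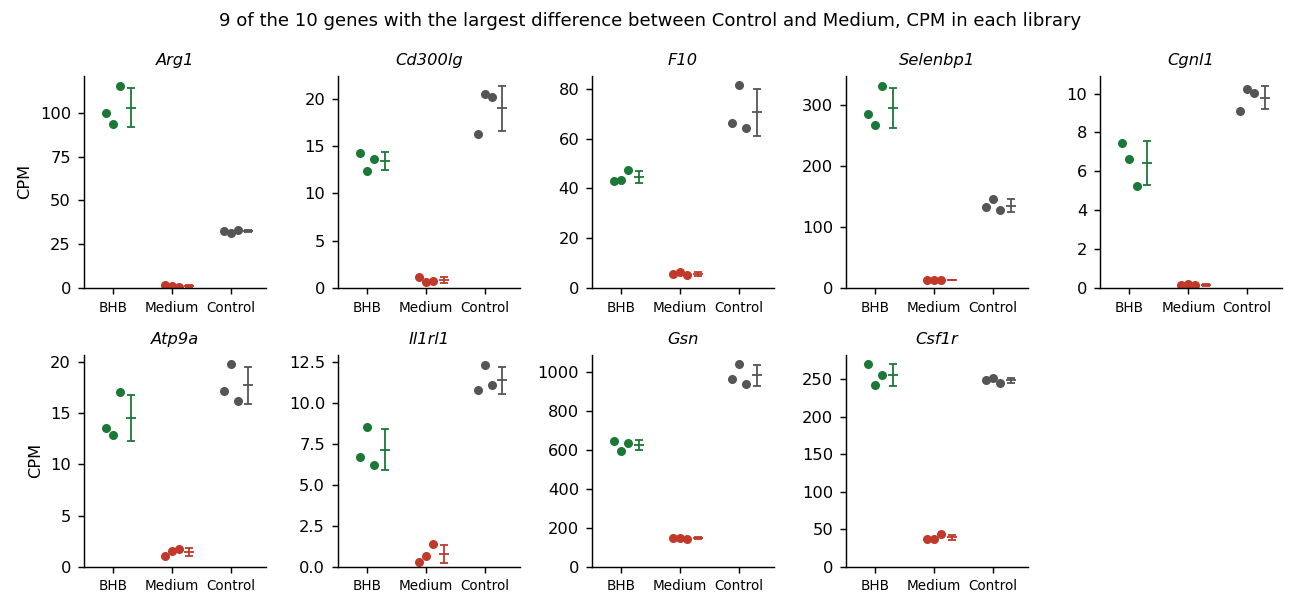
CPM in each library (y axis, linear from 0) of 9 of the 10 genes with the largest difference between Control and Medium, by group (x axis: BHB, Medium, Control). Points are libraries and bars are the mean ± SD (n = 3). Medium is the lowest group in every panel, while BHB lies above Control in Arg1 and Selenbp1, overlaps it in Atp9a and Csf1r and lies below it in the other panels.

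The surface receptors formed the largest group by role, with 12 genes and a median of 101% regained. Roles were assigned after the members were known. Csf1r, the receptor for the survival factors CSF-1 and IL-34, had 271, 242 and 255 CPM in BHB, 37.3, 37.5 and 43.2 CPM in Medium and 248.5, 252 and 245 CPM in Control. Flt1, a receptor for vascular endothelial growth factor, had 294, 252 and 268 CPM in BHB, 67.6, 70.0 and 82.2 CPM in Medium and 241, 255 and 257 CPM in Control. BHB and Control overlapped in both growth factor receptors. With TMM scaling both were slightly above Control, by log2 fold changes of 0.18 (SE 0.0534) and 0.25 (SE 0.0622), and with library sizes alone by 0.04 and 0.11, which edgeR did not call. Of the exon bases of Csf1r, 873 are shared with Hmgxb3 on the opposite strand.

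Receptors of the interleukin-1 family were represented by neighbours. Il1rl1 encodes ST2, the receptor for the alarmin IL-33, and Il18rap encodes the accessory subunit of the IL-18 receptor. Il1rl1 had 6.70, 8.55 and 6.20 CPM in BHB, 0.305, 0.635 and 1.37 CPM in Medium and 10.8, 12.3 and 11.1 CPM in Control. Il18rap had 21.5, 24.1 and 25.4 CPM in BHB, 5.13, 6.69 and 5.50 CPM in Medium and 23.3, 24.8 and 22.5 CPM in Control. Il18rap thus overlapped Control and Il1rl1 did not reach it. Both lie on the plus strand of chromosome 1 (GRCm38), Il1rl1 from 40429570 to 40465415 and Il18rap from 40515362 to 40551705, with no gene at 5 CPM or more in the 49.9 kb between them.

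Among receptors with immune tyrosine-based signaling, Clec5a, a lectin receptor that signals through DAP12, had 62.9, 70.5 and 61.0 CPM in BHB, 9.46, 10.02 and 14.5 CPM in Medium and 65.5, 65.2 and 61.3 CPM in Control. Pirb, an inhibitory receptor for MHC class I, had 26.2, 25.6 and 28.02 CPM in BHB, 3.02, 4.63 and 3.25 CPM in Medium and 24.1, 24.3 and 21.1 CPM in Control. Pirb has near-identical relatives whose reads can be shared with it, so its counts are uncertain. Cd300lg, a member of the CD300 receptor family known from endothelial cells, had 14.2, 12.4 and 13.6 CPM in BHB, 1.16, 0.635 and 0.701 CPM in Medium and 16.2, 20.5 and 20.2 CPM in Control, and Fcrl1, a relative of the Fc receptors, was regained by 92.5%. BHB libraries were all above Control in Pirb, all below it in Cd300lg and Fcrl1, and overlapped it in Clec5a. In Fcrl1 that order held on library totals alone, since the TMM-scaled log2 fold change for BHB against Control was 0.01 (SE 0.0824).

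P2ry6, the UDP receptor by which microglia sense damaged neurons, had 8.23, 7.13 and 8.24 CPM in BHB, 1.34, 1.83 and 1.37 CPM in Medium and 11.4, 10.2 and 9.996 CPM in Control. Cd38, an enzyme that consumes NAD at the cell surface, had 35.6, 38.2 and 36.3 CPM in BHB, 6.93, 8.60 and 8.67 CPM in Medium and 46.3, 59.3 and 49.6 CPM in Control. Both stayed below every Control library. Gpr35, a receptor for tryptophan metabolites, had 28.1, 25.4 and 27.9 CPM in BHB, 5.10, 5.31 and 9.93 CPM in Medium and 22.4, 24.3 and 23.7 CPM in Control, where BHB was the highest group. The ligands of the set were the B-cell factors BAFF and APRIL of the TNF family. Tnfsf13b (BAFF) had 14.3, 12.8 and 15.5 CPM in BHB, 0.916, 1.46 and 1.40 CPM in Medium and 11.9, 10.9 and 13.98 CPM in Control. Tnfsf13 (APRIL) was regained by 90.2%, and its exons share 983 bases with the read-through gene Tnfsfm13. BHB and Control overlapped in both ligands. In the TMM-scaled fit for BHB against Control, Cd38 was called lower and Tnfsf13b higher. P2ry6, Gpr35 and Tnfsf13 were not called.

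The 9 genes of receptor regulation and intracellular signaling had a median of 93.1% regained, and BHB and Control libraries overlapped in 8 of them. Arrb1, which encodes β-arrestin 1, had 237, 193 and 224 CPM in BHB, 33.7, 36.1 and 42.1 CPM in Medium and 235, 235 and 228 CPM in Control. Grk6, a kinase that recruits arrestins to G protein-coupled receptors, had 89.6, 96.2 and 90.2 CPM in BHB, 27.2, 31.1 and 33.4 CPM in Medium and 90.9, 89.7 and 95.1 CPM in Control. Grk6 and Arrb1 act in the same desensitization step and were regained by 100% and 96.4%. Rcan1, the calcineurin inhibitor, was regained by 91.2%, Ksr2, a scaffold of the MAP kinase cascade, by 85.5%, and Cytip, which binds cytohesins, by 93.1%. Sla, an adaptor that limits receptor signaling, was the exception that stayed below Control, at 75.2%.

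Klhl3, a substrate adaptor of a cullin ubiquitin ligase, was all but absent in Medium. It had 6.95, 4.90 and 5.84 CPM in BHB, 0.0610, 0 and 0 CPM in Medium and 4.998, 5.22 and 4.78 CPM in Control. Over the 3 libraries this was 511 counts in BHB and 2 counts in Medium, a ratio of 254 at equal library totals with a 95% counting interval of 70.0 to 2104. Control had 387 counts, a ratio to Medium of 217 (59.6 to 1798). The intervals cover counting error only. The widest fitted log2 fold changes of the set, -7.26 and 7.63, belong to this gene and depend on the prior count.

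Genes of glucose and glycogen metabolism and of the oxygen response, 8 in number, had the highest median share regained, 125%. No gene lay near that median. The shares ran from 91.2% in Pdk1 to 102.5% in Pfkl and from 148% in Gbe1 to 151% in Epm2a. The 3 genes of regulated secretion had a median of 123%. On CPM, BHB was above every Control library in 4 of the 8 genes, overlapped Control in 3 and was below every Control library in 1. Gbe1, the glycogen branching enzyme, had 131, 126 and 163 CPM in BHB, 9.34, 8.82 and 11.2 CPM in Medium and 56.3, 63.7 and 60.8 CPM in Control. Epm2a, which encodes laforin, the phosphatase that keeps glycogen soluble, had 17.9, 14.2 and 20.0 CPM in BHB, 0.977, 0.523 and 1.37 CPM in Medium and 6.79, 8.35 and 7.61 CPM in Control. These glycogen genes were 2.32-fold and 2.29-fold the Control level in BHB.

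The HIF-1 targets Bnip3 and P4ha2 were likewise above Control. Bnip3, a mitophagy receptor, had 310, 261 and 313 CPM in BHB, 47.4, 52.9 and 55.1 CPM in Medium and 153, 183 and 166 CPM in Control. P4ha2, a subunit of collagen prolyl hydroxylase, had 10.9, 8.81 and 12.01 CPM in BHB, 0.916, 0.673 and 0.849 CPM in Medium and 5.47, 5.04 and 5.06 CPM in Control. Pdk1, a pyruvate dehydrogenase kinase and also a HIF-1 target, did not share this. It had 196, 190 and 210 CPM in BHB, 32.6, 37.5 and 51.5 CPM in Medium and 225, 247 and 221 CPM in Control. On CPM, BHB thus lay below every Control library. In the TMM-scaled fit Pdk1 had a log2 fold change of -0.08 (SE 0.0971) for BHB against Control, which was not called. ACGTG was found in the 250 bases before the start of Bnip3, P4ha2, Epm2a and Galk1 and not in those of Pdk1, Pfkl, Gbe1 or Eno3. Only these exact letters were sought, so other forms of the HIF core were not looked for.

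Glycolytic enzymes of the set stopped at Control. Pfkl, the liver-type phosphofructokinase, had 232, 214 and 222 CPM in BHB, 58.1, 59.1 and 83.8 CPM in Medium and 211, 220 and 218 CPM in Control. Eno3, an enolase, had 72.4, 67.0 and 66.3 CPM in BHB, 22.0, 22.4 and 25.7 CPM in Medium and 72.3, 65.6 and 72.5 CPM in Control. Galk1, galactokinase, was regained by 97.5%. BHB and Control overlapped in all 3. Pfkl has a neighbour in the set, the cation channel gene Trpm2. They lie 16.4 kb apart on the minus strand of chromosome 10, Trpm2 from 77907722 to 77970563 and Pfkl from 77986947 to 78010083, with no gene at 5 CPM or more between them. Trpm2 had 23.4, 23.7 and 29.3 CPM in BHB, 6.29, 6.17 and 9.45 CPM in Medium and 30.8, 29.0 and 28.6 CPM in Control.

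The wider list of glycogen and glucose metabolism genes, written with earlier results of these data known, had 32 tested members. In BHB against Medium 27 (84.4%) were called higher and 1 (3.12%) lower, with a median log2 fold change of 1.05, beside 33.2% higher and 33.6% lower and a median of 0.00 over all genes tested. In Medium against Control 6 (18.8%) were called higher and 20 (62.5%) lower, with a median of -0.40, beside 36.3% each way and -0.01 over all genes tested. With library sizes alone these counts were 29 and 0, and 5 and 25. The counts of this list and of the lists below include any genes of the set, whose calls follow from the rule. Of its 5 members that met the condition on Control minus Medium, 4 were in the set (Gbe1, Pfkl, Eno3 and Pdk1), and Pfkm, the muscle-type phosphofructokinase, was regained by 71.1%. Outside the set, glycogen synthase Gys1 and the glycolytic enzymes Tpi1 and Pgam1 had the smallest p in BHB against Medium, with log2 fold changes of 1.97, 1.30 and 1.18.

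**Figure D2:**
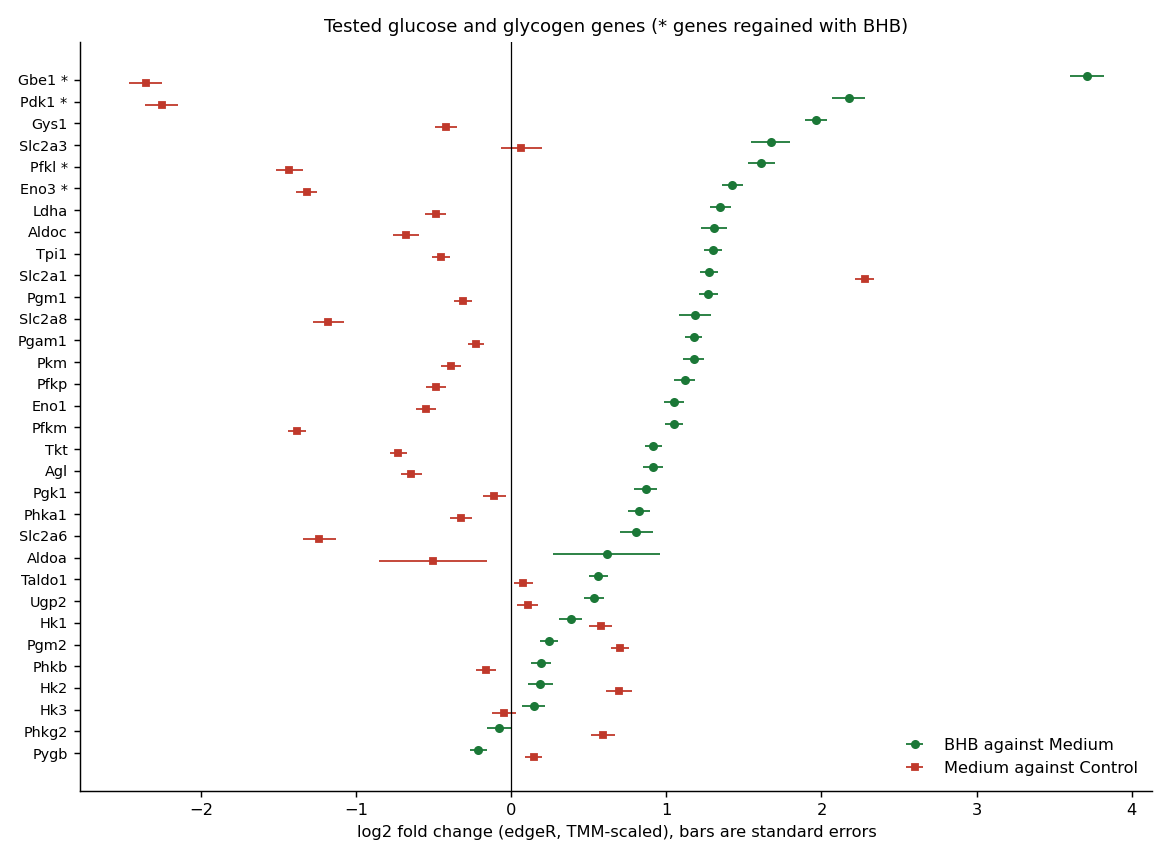
Log2 fold changes (x axis, edgeR with TMM scaling) of the 32 tested glycogen and glucose metabolism genes (rows), for BHB against Medium (circles) and Medium against Control (squares), with standard errors. Asterisks mark the 4 genes of the set; most circles lie right of 0 and most squares left of it, and the Medium libraries enter both.

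Other metabolic genes numbered 7, with a median of 96.7% regained. Apart from Arg1 and Selenbp1 they stood at or below Control. Of those below it on CPM, Gpt was not called lower in the TMM-scaled fit. Gpt, alanine aminotransferase, had 57.6, 58.6 and 49.9 CPM in BHB, 20.0, 19.4 and 21.6 CPM in Medium and 63.6, 63.3 and 64.4 CPM in Control. Slc25a10, the mitochondrial dicarboxylate carrier, had 26.7, 26.4 and 22.8 CPM in BHB, 9.46, 9.46 and 8.19 CPM in Medium and 35.2, 32.2 and 35.4 CPM in Control. Acy1, an aminoacylase, was regained by 77.5%, the guanine deaminase Gda by 96.7% and Haghl, a relative of glyoxalase 2, by 102%. Of the list of detoxification and glutathione enzymes, to which Selenbp1 belongs, 21 of 33 tested members (63.6%) were called higher and 3 (9.09%) lower in BHB against Medium, beside 33.2% higher and 33.6% lower over all genes tested. In Medium against Control 8 (24.2%) were called higher and 16 (48.5%) lower (by library sizes alone, 5 and 21), beside 36.3% each way over all genes tested. The median log2 fold changes of this list were 0.60 and -0.27. Of 5 members lowered enough by LPS, Selenbp1 was the one in the set. Mgst3, Ephx1 and Tst were among the others, and the lowest share regained on this list was 38.01%.

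Of the 6 genes of lipid enzymes and lipid transfer, 4 stayed below every Control library on CPM. In the TMM-scaled fit 3 of these were called lower than Control and Mboat1 was not. Abhd16a, a phosphatidylserine lipase, was regained by 76.1%, Pigh, which acts in the first step of GPI anchor synthesis, by 77.9%, Tmem86a, a lysoplasmalogenase, by 80.6% and Mboat1, a lysophospholipid acyltransferase, by 82.2%. Asah2, the neutral ceramidase, had 28.3, 28.8 and 32.2 CPM in BHB, 6.71, 6.84 and 13.1 CPM in Medium and 29.4, 35.0 and 28.04 CPM in Control, with BHB and Control overlapping. Prelid2, of a family of mitochondrial phospholipid carriers, was above Control, at 23.3, 23.3 and 27.9 CPM in BHB, 5.86, 5.68 and 5.09 CPM in Medium and 16.1, 20.6 and 19.0 CPM in Control.

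Among the transport genes, Kcnq1, a voltage-gated potassium channel, had 9.33, 8.001 and 6.92 CPM in BHB, 0.793, 0.561 and 0.627 CPM in Medium and 4.19, 4.10 and 4.34 CPM in Control. Aqp8, a channel for water and hydrogen peroxide, had 11.2, 9.23 and 8.13 CPM in BHB, 0.610, 0.673 and 0.775 CPM in Medium and 4.19, 4.70 and 5.42 CPM in Control. Both were above every Control library in BHB. On the list of ion channels, 19 of 37 tested members (51.4%) were called higher and 5 (13.5%) lower in BHB against Medium, beside 33.2% higher and 33.6% lower over all genes tested, and 7 (18.9%) higher and 20 (54.1%) lower in Medium against Control, beside 36.3% each way. With library sizes alone the counts were 25 and 3, and 3 and 27. The list medians were 0.30 and -0.43 on the log2 scale. Kcnq1 and Trpm2 were 2 of its 6 members lowered enough by LPS.

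Regulated secretion was represented by Unc13a and Cadps, which prime vesicles for release in neurons and neuroendocrine cells, and by Rab44, a large Rab GTPase known from mast cells. Rab44 had 46.5, 34.2 and 39.9 CPM in BHB, 2.53, 2.80 and 5.54 CPM in Medium and 17.2, 17.6 and 15.5 CPM in Control. Unc13a had 34.7, 31.0 and 29.9 CPM in BHB, 6.38, 5.83 and 6.16 CPM in Medium and 23.7, 26.9 and 20.6 CPM in Control. Cadps had 94.4, 100 and 104 CPM in BHB, 31.1, 26.5 and 28.7 CPM in Medium and 89.5, 103 and 87.8 CPM in Control. On CPM, BHB was above every Control library in Rab44 and Unc13a and overlapped Control in Cadps. In the TMM-scaled fit all 3 were called higher than Control, Cadps by a log2 fold change of 0.23 (SE 0.0823). Unc13a shares 495 exon bases with Colgalt1 on the opposite strand.

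Xirp1, which encodes an actin-binding repeat protein of muscle, exceeded Control by more than any other gene of the set. It had 54.4, 51.2 and 47.3 CPM in BHB, 0.855, 0.860 and 0.701 CPM in Medium and 11.8, 10.1 and 8.36 CPM in Control. BHB was 5.05-fold the Control level, and its log2 fold change for BHB against Control was 2.48 (SE 0.116). S100a4, a calcium-binding protein that acts on nonmuscle myosin, had 273, 291 and 296 CPM in BHB, 42.6, 36.5 and 37.6 CPM in Medium and 136, 150 and 154 CPM in Control. Among the other cytoskeletal genes, Nf2, the tumor suppressor merlin, had 167, 169 and 164 CPM in BHB, 50.8, 51.4 and 82.5 CPM in Medium and 173, 177 and 185 CPM in Control. The neurofilament genes Nefh and Ina were regained by 85.4% and 83.5%, at low levels of 6.48 to 11.8 CPM in BHB, and Afap1l1, an actin-filament-associated protein, by 77.3%. Of the 9 cytoskeletal and junction genes, Xirp1 and S100a4 were above every Control library in BHB, Afap1l1 overlapped Control and the other 6 were below it on CPM. In the TMM-scaled fit 3 of the 9 were called lower, and Nf2 had a log2 fold change of 0.04 (SE 0.109) for BHB against Control, the other direction.

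Of the nuclear and cell division genes, Chd5 and Tex14 were above Control. Chd5, a chromatin remodeler best known from neurons and testis, had 92.6, 72.9 and 93.4 CPM in BHB, 5.98, 4.63 and 7.34 CPM in Medium and 42.4, 41.1 and 36.8 CPM in Control. Tex14, which forms intercellular bridges of germ cells, had 10.9, 11.5 and 11.9 CPM in BHB, 0.549, 0.673 and 1.37 CPM in Medium and 4.57, 4.73 and 3.74 CPM in Control. Ranbp1, a cofactor of the Ran GTPase, had 112, 128 and 114 CPM in BHB, 39.0, 37.3 and 47.4 CPM in Medium and 157, 149 and 160 CPM in Control. The spindle checkpoint gene Mad1l1, the paraspeckle gene Pspc1 and the nuclease partner Eme2 were below every Control library too, at 77.6%, 82.2% and 85.7% regained. In the TMM-scaled fit Eme2 was not called lower. Eme2 shares 1557 exon bases with Mapk8ip3 and 1694 with Spsb3, and its counts are uncertain.

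The proliferation program itself was outside the set. Of 38 tested genes of DNA replication and mitosis, 27 (71.1%) were called higher and 2 (5.26%) lower in BHB against Medium, beside 33.2% higher and 33.6% lower over all genes tested, and 0 higher and 35 (92.1%) lower in Medium against Control, beside 36.3% each way. Their median log2 fold changes were 0.51 and -1.08. Of the 13 that met the condition on Control minus Medium, 0 were in the set, with 14.7% to 72.1% regained and a median of 45.6%. Mcm7, a subunit of the replicative helicase, averaged 63.5 ± 0.886 CPM in BHB, 24.5 ± 1.61 CPM in Medium and 140 ± 5.71 CPM in Control (SD, n = 3 each). The 7 myeloid lineage transcription factors lowered enough by LPS, among them Maf, Mef2c, Klf2, Klf4, Lyl1 and Fli1, were outside the set as well, at 19.4% to 68.5% regained.

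Homeostatic microglial genes were regained in part. Of 21 tested, 14 (66.7%) were called higher and 2 (9.52%) lower in BHB against Medium, beside 33.2% higher and 33.6% lower over all genes tested. In Medium against Control 2 (9.52%) were called higher and 16 (76.2%) lower (by library sizes alone, 0 and 17), beside 36.3% each way. Medians for this list were 0.69 and -1.22 on the log2 scale. Of the 6 lowered enough by LPS, P2ry6 and Csf1r were in the set. Trem2, the lipid receptor of microglia, was just outside, at 70.4% regained, with 130 ± 6.27 CPM in BHB, 23.1 ± 1.26 CPM in Medium and 266 ± 15.1 CPM in Control (SD, n = 3 each). Mertk, Rnase4 and Cd33 were regained less, and Cd33 averaged 100.1 ± 6.76 CPM in BHB, 87.7 ± 6.18 CPM in Medium and 356 ± 20.9 CPM in Control (SD, n = 3 each).

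On the list of alternative activation genes, 9 of 14 tested members (64.3%) were called higher and 2 (14.3%) lower in BHB against Medium, beside 33.2% higher and 33.6% lower over all genes tested, and 7 (50%) higher and 6 (42.9%) lower in Medium against Control, beside 36.3% each way. Arg1 was the member in the set, while the lectin Clec10a and the transcription factor Klf4 were lowered by LPS and regained by at most 51.1%. Of 30 paired and inhibitory immune receptors, 20 (66.7%) were called higher and 7 (23.3%) lower in BHB against Medium, and 9 (30%) higher and 18 (60%) lower in Medium against Control. Pirb was the one in the set among 5 lowered enough by LPS, and the lowest share among them was 32.7%. Of 36 G protein-coupled receptors, 14 (38.9%) were called higher and 7 (19.4%) lower in BHB against Medium, and 12 (33.3%) higher and 21 (58.3%) lower in Medium against Control, so that the shares called higher were near those over all genes. P2ry6 and Gpr35 were 2 of 10 lowered enough, and the median share regained by these 10 was 34.6%. For Cxcr4 the share was 4.94%. The median log2 fold changes of the alternative activation, inhibitory receptor and G protein-coupled receptor lists were 0.55, 0.57 and 0.16 for BHB against Medium and 0.20, -0.81 and -0.87 for Medium against Control.

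Of 31 integrin and adhesion genes, 18 (58.1%) were called higher and 6 (19.4%) lower in BHB against Medium, beside 33.2% higher and 33.6% lower over all genes tested. In Medium against Control 11 (35.5%) were called higher and 14 (45.2%) lower (by library sizes alone, 5 and 19), beside 36.3% each way over all genes tested. Itgax and Nrp1 were lowered enough by LPS and stayed outside the set. Of 23 coagulation and complement genes, 10 (43.5%) were called higher and 5 (21.7%) lower in BHB against Medium, and 10 (43.5%) higher and 10 lower in Medium against Control. F7, the initiating protease upstream of F10, was regained by 70.1% and the thrombomodulin gene Thbd by 62.3%. Of 15 S100 proteins and annexins, 8 (53.3%) were called higher and 3 (20%) lower in BHB against Medium, and 4 (26.7%) higher and 7 (46.7%) lower in Medium against Control (3 and 10 with library sizes alone). S100a4 was the one lowered enough by LPS. The median log2 fold changes of these 3 lists were 0.26, 0.39 and 0.29 for BHB against Medium and -0.10, -0.32 and -0.21 for Medium against Control. Further lists of lipid handling, sterol synthesis, lysosomal, fatty acid oxidation and TGF-β genes held no gene of the set.

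**Figure D3:**
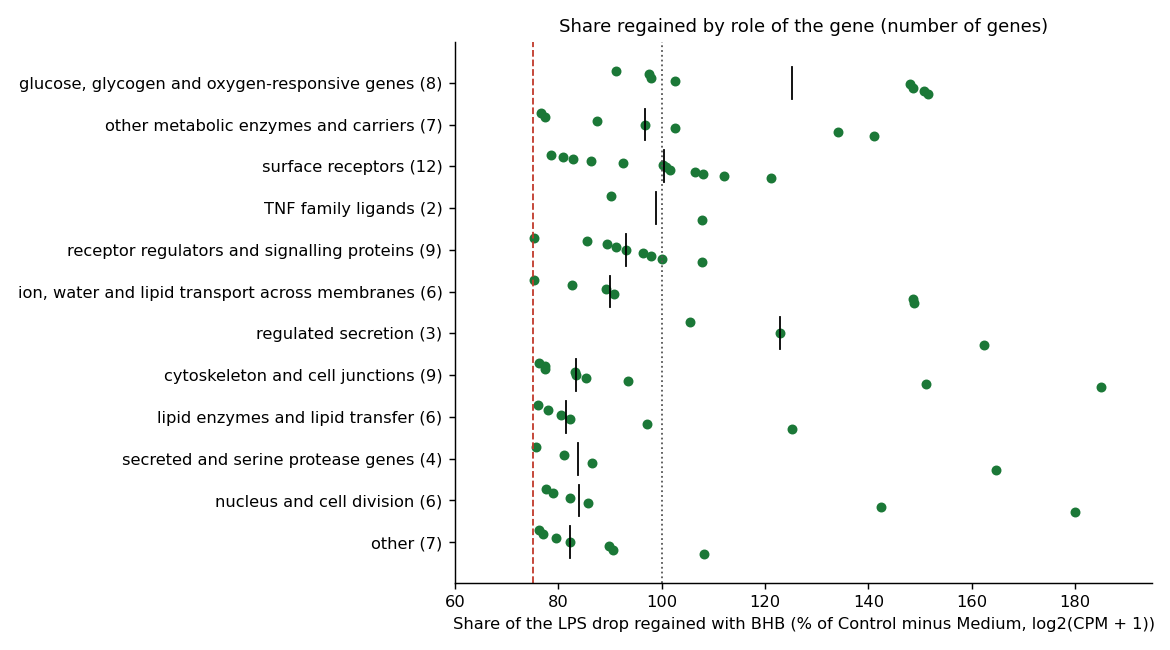
Share of the Control minus Medium difference that was regained with BHB (x axis, percent, on the log2(CPM + 1) scale) for each of the 79 genes, by role (rows, number of genes in parentheses). Points are genes, black bars are medians, the dashed line is the limit of 75% set by the rule and the dotted line is the Control level; the median is highest, 125%, for glucose, glycogen and oxygen-responsive genes and lowest, 81.4%, for lipid genes.

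The rule sets a lower limit on BHB relative to Control and no upper one. On CPM, every BHB library lay above every Control library in 19 of the 79 genes, as in 27.9% of all genes at 5 CPM or more, and below every Control library in 33, as in 49.7% of all such genes. The groups overlapped in 27. Of the 33 genes, 20 were called lower in the TMM-scaled fit, 13 were not, and Fcrl1 and Nf2 among the 13 had fold changes just above 0 there. In the TMM-scaled fit, 22 genes were called higher in BHB than in Control, where 33.4% of all genes tested were, and 20 were called lower, where 33.3% of all genes tested were. The median log2 fold change of the set for BHB against Control was -0.03, and the values ran from -0.53 to 2.48. With library sizes alone, which shift the median over all genes to -0.14, 17 were called higher and 23 lower. In 10 genes the mean CPM in BHB was over 2 times that in Control, and in 15 over 1.5 times. The share of all genes with such ratios was not determined, so these counts only describe the set.

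Those 10 genes were Xirp1, Arg1, Tex14, Prss46, Rab44, Gbe1, Epm2a, Selenbp1, Chd5 and P4ha2. Prss46, a gene of the serine protease family, had 11.2, 14.6 and 15.2 CPM in BHB, 0.641, 0.561 and 0.886 CPM in Medium and 5.34, 5.60 and 4.90 CPM in Control. The 10 were picked by that ratio, and none of them overlapped Control. In the fit, their log2 fold changes for BHB against Control ran from 1.16 (SE 0.158) in P4ha2 to 2.48 in Xirp1.

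**Figure D4:**
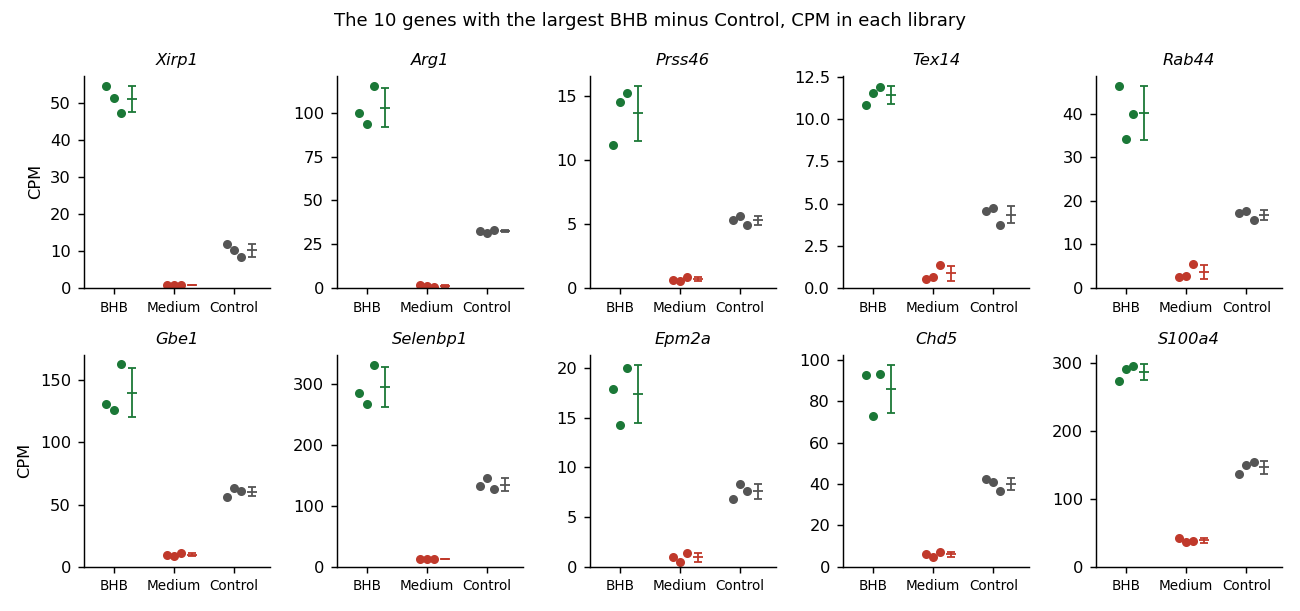
CPM in each library (y axis, linear from 0) of the 10 genes with the largest BHB minus Control on the log2(CPM + 1) scale, by group (x axis: BHB, Medium, Control). Points are libraries and bars are the mean ± SD (n = 3). In all 10 panels the BHB libraries lie above the Control libraries and the Medium libraries lie near the bottom.

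Genes without a place in these roles were regained by 76.3% to 108%. Wdr41, a subunit of the C9orf72 complex, had 23.1, 26.5 and 24.7 CPM in BHB, 7.05, 7.33 and 8.30 CPM in Medium and 34.9, 35.6 and 35.3 CPM in Control. Ttc8, a subunit of the BBSome, was regained by 79.5%, Rcbtb2 by 82.2%, Krcc1 by 90.5%, Zfand4 by 77.0%, Ccdc122 by 89.7% and Ubxn8, a factor of protein degradation at the endoplasmic reticulum, by 108%. Among secreted proteins, Edil3, an integrin ligand, was regained by 75.7% and C1rl, a relative of complement C1r, by 86.4%. Tifab, an inhibitor of TRAF6 signaling, was regained by 89.4%, Neurl2 by 98.0% and Cacng8, an auxiliary subunit of AMPA receptors, by 82.6%.

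The set has soft edges. Ubxn8 and Ccdc122 had the smallest Control minus Medium inside it, 1.504 and 1.506, and Serpinf1 and Msto1 stood just outside at 1.495 and 1.491. Sla had the smallest regained fraction inside it, 0.752, and Tspyl4 and Tk1 stood just outside at 0.749 and 0.748. Cacng8 and C1rl had the lowest highest-group mean, 5.07 and 5.11 CPM, and Padi1 at 4.99 CPM was left out. Medium replicate 3 was the highest Medium library in 51 of the 79 genes, with a median of 1.10 times the Medium mean. Without it the rule gave 108 genes, 77 of them shared with the 79. Leaving out each of the other libraries gave 73 to 83 genes, and 56 of the 79 were in all 9 selections.

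Scaling mattered more. Library totals leave a median log2 difference over all genes of -0.27 for Medium against Control and 0.13 for BHB against Medium, which widens every Control minus Medium. With TMM-scaled libraries the rule gave 57 genes out of 259 lowered enough, and 49 of them were shared, 62.0% of the 79. Arg1, Selenbp1, Xirp1, Gbe1, Epm2a, Csf1r, Flt1, Gsn and F10 were among the shared genes, while Bnip3, Pfkl, Eno3, Galk1, Tex14 and Kcnq1 were not.

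The spread between libraries of a group was wider in the set than over all genes at 5 CPM, with median coefficients of variation of 7.80%, 16.1% and 6.36% in BHB, Medium and Control, against 5.55%, 7.98% and 4.29%. The rule picks genes that are low in Medium, where small counts widen this coefficient. Genes of matched level were not compared, so these values only describe the set. All 79 genes are protein-coding and lie on 19 chromosomes. In 22 of them exon bases are shared with another gene, in 18 with a gene on the opposite strand. The study's methods describe strand-specific alignment with STAR, while the notes of the submitters name HISAT2, and whether counting took account of strand is not stated, so reads in these stretches cannot be assigned with certainty. Among the overlapping partners, 9 genes of the set met one that is in the table, such as Ctsa for Neurl2, Plekhh1 for Pigh and Rb1 for Rcbtb2.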

How the data were processed

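RNA from 9 BV-2 cultures was sequenced, 3 each in the BHB, Medium and Control groups, as the submitters' labels assign them. The authors deposited whole-number counts per gene symbol, neither normalized nor pooled. The study's methods name Skewer, FastQC, STAR on GRCm38 with GENCODE M21, StringTie and DESeq2, whereas the notes of the submitters list HISAT2, StringTie, Trimmomatic and FastQC 0.11.5, also with GRCm38. How alignments became counts was not given in sources used here.

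From the deposited counts, CPM on column totals served the selection rule, with a pseudocount of 1 CPM. Fold changes and calls came from edgeR 4.0.16 in R 4.3.3 (glmQLFit and glmQLFTest, TMM, filterByExpr, 10413 genes, 1 fit of all 9 libraries, Benjamini-Hochberg adjustment, threshold 0.05). In simulated counts 74.2% to 100% of the changed genes were recovered, depending on the size of change, with 4 to 7 false calls. Few genes were changed there and many are called in these data, so the scaling was not tested under like conditions. The standard error of a log2 fold change was derived from its F statistic. Precision is limited by 3 libraries a group and by total counts of 23411672 to 32767278. The members and the 18 gene lists were chosen with earlier results of these data known. Values in every library were given for the 10 genes with the largest Control minus Medium, the 10 with the largest BHB minus Control and the 10 highest in Control, and for others named by role after the members were known. Some genes that these rules select are not reported here. Alternatives were DESeq2 1.42.0, RLE factors, library sizes alone, other count filters, the 2 compared groups alone, a replicate block, other settings of the rule and leaving out each library.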

Additional observations from a re-analysis of the deposited data

How the results depend on the processing

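The number of selected genes, 79, was 262 when Control minus Medium had to reach 1, 30 when it had to reach 2, 199 when a fraction of 0.5 had to be regained and 44 when 0.9 had to be. Other minimum levels, pseudocounts, group medians and scalings gave 57 to 93 genes, and leaving out each library in turn gave 73 to 108. In BHB against Control, 20 genes of the set were called lower, with 13 to 20 when each library was left out in turn, 13 of them without BHB replicate 3, and 22 were called higher, with 19 to 27. All 79 stayed called lower in Medium against Control and higher in BHB against Medium without any 1 library. With at least 10 counts in every library, 77 genes of the set were still tested and called in both. For single genes, the calls of Il1rl1, Cd300lg and Cgnl1 below Control were lost when some libraries were left out, and those of Csf1r and Flt1 above Control with library sizes alone. The cause was not tested.

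The labels do not say whether replicate numbers pair the libraries. Deviations of same-numbered libraries from their group means correlated between -0.071 and 0.063. Those of differently numbered libraries correlated between -0.082 and 0.055. With 3 libraries a group, these values cannot decide whether same-numbered cultures were handled together. With the replicate number as a block, 7488 genes were called in Medium against Control, 6884 in BHB against Medium and 6864 in BHB against Control, beside 7561, 6964 and 6948 without it, and 23 genes of the set were called higher and 17 lower in BHB than in Control.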
